A study of Rattus norvegicus with 10 samples.

Results

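rno-miR-199a and rno-miR-214 are rat microRNAs of a mesenchymal gene cluster, and their levels were followed across all 10 RNAs of a study of collateral arteries. They were chosen by name from the array's annotation, any arm or star form counting, which gave 2 of the 237 rat miRNA names on the array. No probe of another species' name and no star form carried miR-199 or miR-214 in its name. Each member was therefore read by 1 probe with 3 spots. Both were among the 93 rat miRNAs above background often enough in either group to be tested, miR-214 in both groups and miR-199a in the shunt group alone.

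The RNAs came from collateral vessel tissue of 5 male rats, whose strain the labels write as Spraque-Dawley. In the shunt leg of each animal the femoral artery was ligated and an arteriovenous shunt was placed, which raises fluid shear stress in the collateral arteries, the small bypass vessels around the ligation. The other leg of the same animal had a sham operation and is the control, so each group holds 5 RNAs. No genetic change was made in either group, and neither the labels nor the files used here give the animals' age or the time after surgery. RNA was labelled with a red-channel dye (AF665) or a green-channel dye (AF546) and hybridised in pairs to 10 arrays that form a closed loop, so that each RNA was read once in each dye.

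As background, miR-199a of the gene Mir199a2 and miR-214 are processed from a shared long non-coding transcript, Dnm3os, which runs opposite to the gene of the GTPase dynamin 3. In mouse this transcript is active in mesenchymal tissue during development, driven by the transcription factor Twist1. In the adult, both miRNAs are known from fibroblasts, vascular smooth muscle and injured or remodelling tissue. miR-199a-5p is known to repress the hypoxia factor Hif1a and the deacetylase Sirt1 in cardiac muscle cells. miR-214 is known to repress the chromatin enzyme Ezh2 in mouse skeletal muscle and the sodium-calcium exchanger Ncx1 in mouse heart.

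The mature sequences of both hairpins are shown because the seed (bases 2 to 8, in capitals) sets which messenger RNAs a miRNA can bind. They are RefSeq's, on the plus strand of chromosome 13 in build GRCr8, 5′ to 3′.
rno-miR-199a-5p: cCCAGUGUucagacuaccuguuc
rno-miR-199a-3p: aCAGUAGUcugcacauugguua
rno-miR-214-5p: aGAGUUGUcaugugucu
rno-miR-214-3p: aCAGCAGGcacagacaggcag
They lie at chr13:77116255-77116277, chr13:77116294-77116315, chr13:77121656-77121672 and chr13:77121713-77121733 in this order. The array's older names rno-miR-199a and rno-miR-214 correspond by common usage to the 5p arm of the first hairpin and the 3p arm of the second; the sequences of the probes themselves were not used here.

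The 2 hairpins are separated by 5340 bases, counted from the end of miR-199a-3p to the start of miR-214-5p, with no other annotated mature miRNA between them. Both fall within the annotated bounds of Dnm3. Whether mature miR-199a also comes from another locus was not checked. The miR-214 hairpin is printed whole, with the arm named on the array in capitals, because both arms come from 1 stem and only this arm was read.
rno-mir-214 hairpin: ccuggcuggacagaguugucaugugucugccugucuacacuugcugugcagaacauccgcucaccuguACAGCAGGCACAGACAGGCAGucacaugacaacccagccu
It runs over chr13:77121645-77121752, 108 bases in all. None of the 4 seeds is shared with another of the 724 rat mature miRNAs in the table used, so the 2 members belong to different seed families. The longest identical run between miR-199a-5p and miR-214-3p was 5 bases. Against either arm of 69 other tested rat miRNAs whose names matched the table, of 91 in all, the longest run was 8 bases for miR-199a-5p, with miR-29a-5p, and 7 bases for miR-214-3p.

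Neither member passed the test between the legs, and their 2 patterns across the RNAs were unlike. miR-214 was well above background, although its 2 readings of an RNA differed by more than those of most tested miRNAs, and it varied more among the control legs: 2 of the 5 control RNAs lay below every shunt RNA and the other 3 lay within the shunt range. miR-199a lay close to background and ran from 6.14 to 6.52 on the log2 scale. The mean difference, shunt minus control, was 0.30 for miR-214 (SE 0.22, n = 5 a group) and 0.12 for miR-199a (SE 0.072, n = 5 a group).

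The background to these values over the tested rat miRNAs is as follows. In the limma test over 93 rat miRNAs, 1 passed an adjusted p of 0.05, which is 1.08%, and this was miR-21, higher in the shunt legs. With the animal as a fixed block 0 passed in limma, the smallest adjusted p being 0.126, with 13 at an unadjusted p under 0.05. miR-21 was above background in 0 of 10 control and 8 of 10 shunt readings, so it entered the test through the shunt group, where it is high. Of the 93 miRNAs, 60 entered through both groups, 32 through the shunt group alone and 1 through the control group alone, which favours higher values in shunt legs. The lower direction held 0 (0%), and 18 miRNAs had an unadjusted p under 0.05. The median difference of all 93 was 0.12, with 67 above 0 and 26 below. The number of rat miRNAs above background, averaged over the 2 readings of an RNA, ran from 36.5 to 84.5 in control legs and from 72.5 to 102 in shunt legs. The 2 RNAs with the fewest were control 2 and control 5. How far these counts bear on the members' differences was not tested.

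The levels below are normalized log2 intensities, the mean of an RNA's 2 readings, on a scale whose lower limit after the added offset is 5.64. For miR-214 the control legs of animals 27, 28, 30, 31 and 32 read 7.29, 6.81, 7.997, 7.82 and 8.05. The shunt legs of the same animals read 8.07, 7.85, 7.89, 8.04 and 7.60. Control 2 (animal 28) and control 1 (animal 27) were the 2 lowest RNAs, shunt 5 (animal 32) came next, and the groups overlapped.

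From control 4 upward, the 7 highest miR-214 levels, control and shunt mixed, lay between 7.82 and 8.07. Neighbours in that stretch did not differ beyond the mean gap of 0.33 between 2 readings of the same RNA. That gap includes a mean dye difference of 0.28, which cancels between RNAs, so it does not measure the error of a level. The group means were 7.59 ± 0.53 in control and 7.89 ± 0.19 in shunt legs (SD, n = 5 each). The fold from these means was 1.23, with a 95% confidence interval of 0.874 to 1.73. limma gave an unadjusted p of 0.209 and an adjusted p of 0.363.

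Within animals the miR-214 difference split into 2 directions. It was 0.78 in animal 27 and 1.04 in animal 28, 0.21 in animal 31, -0.10 in animal 30 and -0.45 in animal 32. The shunt leg was thus higher in 3 of 5 animals, and the 2 largest differences belonged to the 2 animals with the lowest control legs. Without control 2 the mean difference was 0.10. An exact two-sided permutation test gave p = 0.286 unpaired (n = 5 each) and p = 0.375 with signs exchanged within animals. The smallest values these tests allow are 0.00794 and 0.0625.

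The spread of miR-214 differed between the groups as a description. Its control SD of 0.53 was exceeded by 6 of the 93 tested miRNAs, and its shunt SD of 0.19 by 28. Most of the tested miRNAs leaned the same way: 74 of 93 had the larger SD in control legs, with a median SD of 0.218 against 0.143.

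**Figure D1:**
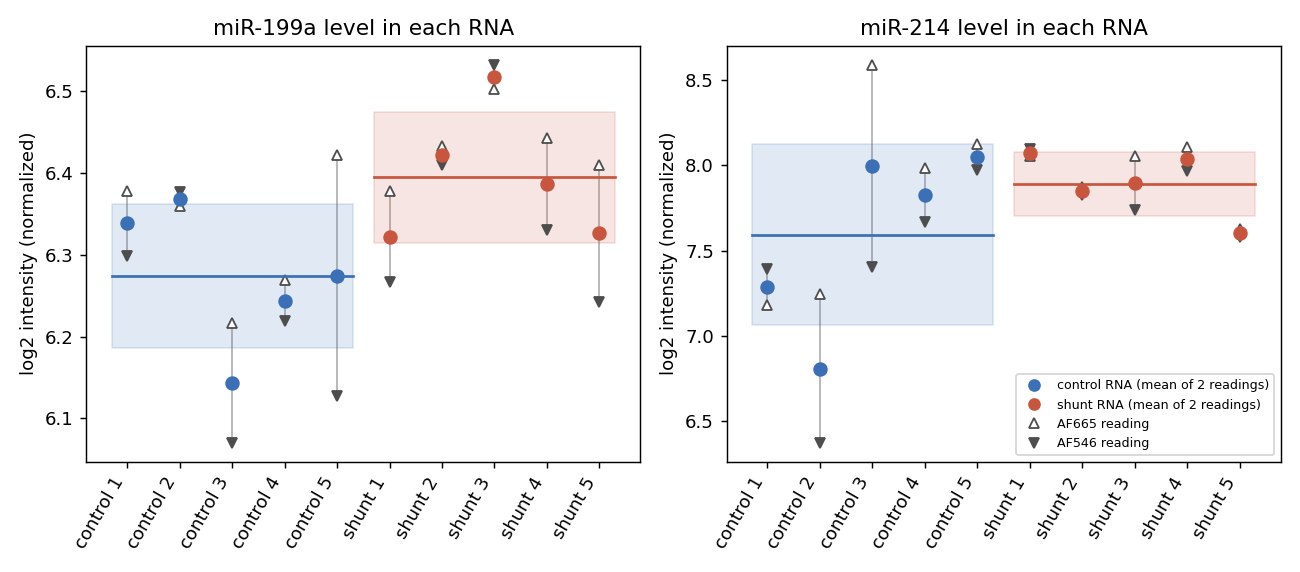
Normalized log2 level of miR-199a and miR-214 in each of the 10 RNAs, on the y axis, as filled circles, with the reading in each dye as triangles, the group mean as a line and 1 SD as a band. The mean level of miR-214 runs from 6.81 to 8.07, with control 2 and control 1 lowest, and miR-199a stays between 6.14 and 6.52.

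For miR-199a the control legs of animals 27, 28, 30, 31 and 32 read 6.34, 6.37, 6.14, 6.24 and 6.27. The shunt legs read 6.32, 6.42, 6.52, 6.39 and 6.33. The highest 3 RNAs were shunt legs and the lowest 3 were control legs, and between them lay controls 1 and 2, just above shunt 1 and shunt 5. This order did not follow the signal over background in every case. Control 2, the highest control leg, had no reading above background. In AF665, shunt 5 read 6.41 at 0.962 SD above background, and shunt 1 read 6.38 at 3.42 SD.

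The group means of miR-199a were 6.27 ± 0.088 in control and 6.39 ± 0.080 in shunt legs (SD, n = 5 each), a fold of 1.09 with a 95% confidence interval of 0.975 to 1.21. limma gave an unadjusted p of 0.12 and an adjusted p of 0.294. Because miR-199a entered the test through the shunt group alone (4 of 10 control and 8 of 10 shunt readings above background), the choice leaned towards a higher shunt level, and neither these values nor the permutation p-values support a difference. The mean gap between 2 readings of the same RNA was 0.10. AF665 read higher by a mean of 0.094, which cancels between legs because each level averages both dyes. The gap is therefore no measure of the error of the group difference. The shunt leg was higher in 4 of 5 animals, from -0.016 in animal 27 to 0.37 in animal 30.

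The miR-199a difference lay 0.0015 from the median difference of the 93 tested miRNAs. Of these, 32 entered through the shunt group alone and 1 through the control group alone, which favours a higher median. After subtracting the median level of the tested miRNAs from each RNA, the miR-199a difference was -0.0041, with the sign turned. An exact two-sided permutation test gave p = 0.0476 unpaired on the levels as normalized (n = 5 each). On centred levels the same exact test gave p = 0.968, and with signs exchanged within animals on the uncentred levels it gave p = 0.125. For miR-214, 0.18 of the difference remained relative to the median shift, and the centred exact permutation p was 0.540 unpaired.

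Non-overlap of the 2 groups was not seen for either member, and 5 of the 93 tested miRNAs (5.38%) had it. The precision differed between the members: 8 of 93 miRNAs had a larger SE than miR-214, and 84 had a larger SE than miR-199a, whose levels near the offset are compressed. With an offset of 0, the SE of miR-199a was 0.24 and the 95% confidence interval of its difference ran from -0.43 to 0.61 on the log2 scale, so the narrow interval above depends on the offset.

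**Figure D2:**
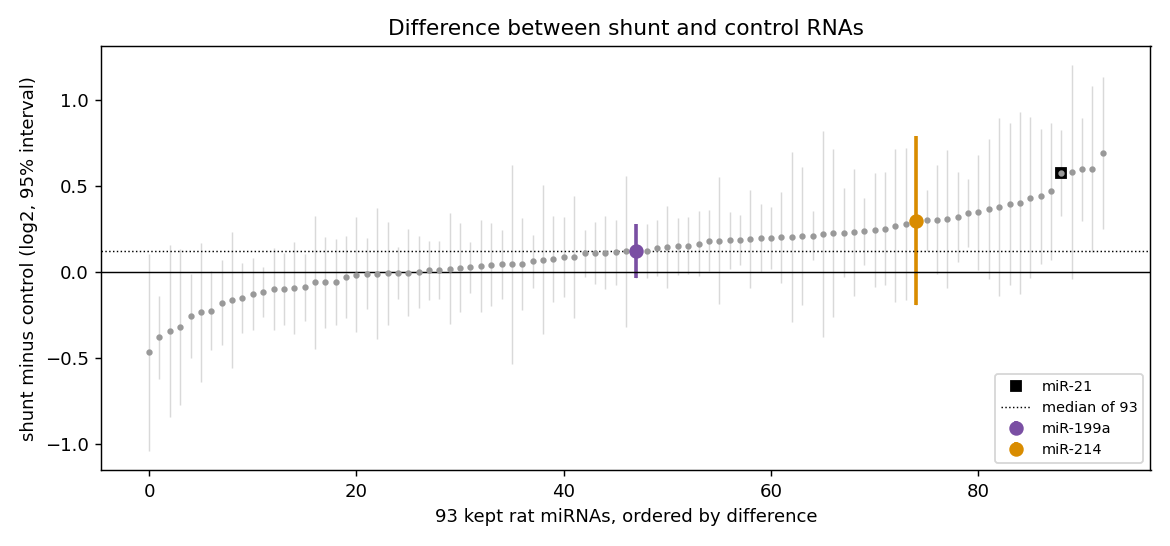
Shunt minus control difference in log2 level for the 93 tested rat miRNAs ordered by difference, with 95% confidence intervals, the 2 members and miR-21 marked and the median of all as a dotted line. Both members' intervals include 0, and the miR-199a difference of 0.12 lies on the median of all tested miRNAs.

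The signal behind the levels separated the members clearly. miR-214 was above background, meaning at least 2 of 3 spots more than 2 SD over the local background, in 19 of 20 readings: 9 of 10 in control legs and 10 of 10 in shunt legs. The exception was control 2 in AF546, where the mean foreground of 77 stood against a background of 57.3. Its signal stood a median of 8.87 SD above background in control legs (lowest 1.05, highest 34.6) and 19.2 SD in shunt legs (lowest 8.43, highest 56.7).

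miR-199a was above background in 12 of 20 readings, 4 of 10 in control legs and 8 of 10 in shunt legs. Controls 2 and 5 had no reading above background, control 1 was the control RNA above it in both dyes, and all 5 shunt RNAs had at least 1 such reading. Its signal stood a median of 1.91 SD above background in control legs (lowest 1.20, highest 2.72) and 3.02 SD in shunt legs (lowest 0.962, highest 5.26). Before normalization, the foreground over background was 8 to 61.3 intensity units in control legs and 4.33 to 70.7 in shunt legs. The same quantity for miR-214 was 19.7 to 289.7 and 46 to 515 units. These 2 probes' signals are given for their distance from background and do not rank the abundance of the miRNAs. Controls 2 and 5, where miR-199a was not above background in either dye, are also the 2 RNAs with the fewest rat miRNAs above it.

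**Figure D3:**
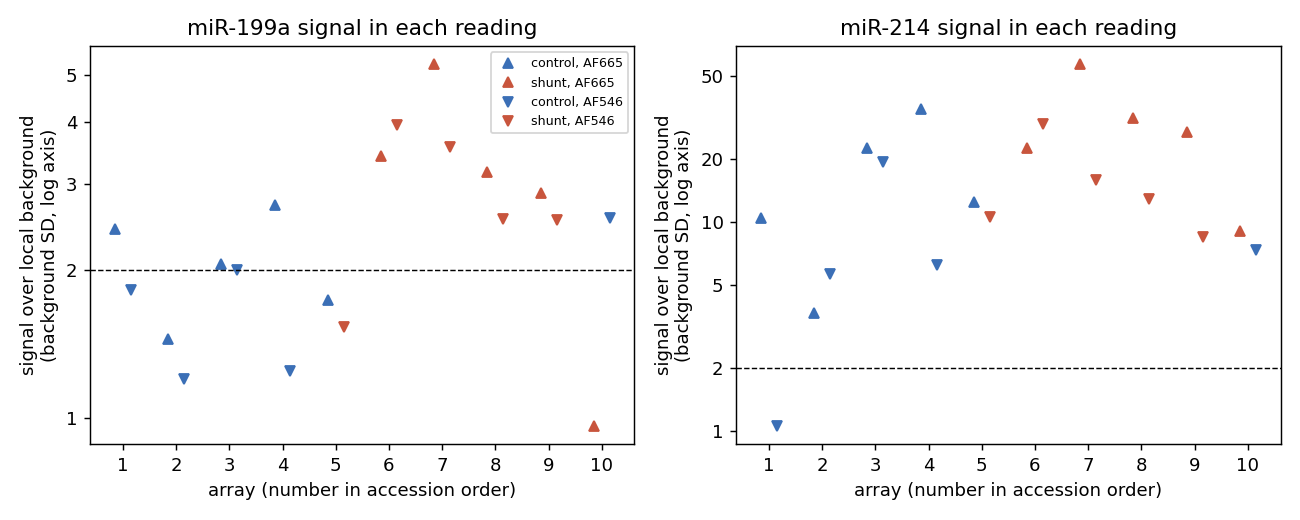
Signal of each member above local background, in SD of the background, on a log axis, for all 20 readings by array, leg and dye. Arrays are numbered in accession order, which is linked to leg: arrays 1 to 4 held control legs only and arrays 6 to 9 shunt legs only. The ratio of first to last spot given below also differs along this order. The mean over the 3 spots of miR-214 lies above the line at 2 SD in 19 readings, while miR-199a lies around it, between 0.962 and 5.26.

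The 2 readings of an RNA came from different arrays and dyes, so their gap holds the dye difference of a probe besides the error of a reading. For miR-214 they differed by 1.18 in control 3 (8.59 in AF665 and 7.40 in AF546) and by less elsewhere. Control 2, the lowest RNA, read 7.24 in AF665 and 6.37 in AF546, so its AF665 reading was close to both readings of control 1. The mean gap was 0.33 for miR-214 and 0.10 for miR-199a, and the median gap of the tested miRNAs was 0.21. For 17 tested miRNAs it was larger than for miR-214. AF665 read higher in 8 of 10 RNAs for both members, by a mean of 0.28 for miR-214 and 0.094 for miR-199a. The medians over the tested miRNAs were 6 of 10 RNAs and 0.081.

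The arrays that held both legs, 2 of the 10, gave a direct ratio with no test. On array 5, shunt 1 against control 5 gave -0.029 for miR-214 and -0.16 for miR-199a. On array 10, shunt 5 against control 1 gave 0.23 and 0.11. The mean over both arrays was 0.10 for miR-214 and -0.022 for miR-199a, beside 0.040 for the median tested miRNA. The other 8 arrays held 1 leg type each, so for them array and leg are linked through the loop.

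The 3 spots of the miR-214 probe did not read alike on all arrays. On arrays 1 to 4, which held control legs, the first spot by block number over the last spot was -0.16 to 0.19 in log2 signal over background. On arrays 6 to 10 the first spot was the brightest in 10 of 10 readings, by 0.23 to 2.20. Arrays 6 to 9 held shunt legs. The 19 miRNAs above background in all 20 readings moved with it: the medians of the same ratio ran from -0.10 to 0.12 on arrays 1 to 4 and from 0.085 to 1.43 on arrays 6 to 10. With the first spot alone, the difference was 0.49 for miR-214 (adjusted p = 0.106) and 0.20 for miR-199a (adjusted p = 0.149) in limma. With the last spot alone, it was 0.10 (adjusted p = 0.853) and 0.0046 (adjusted p = 0.965) in limma. Its part in the members' differences was not tested beyond these values.

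The members did not follow each other across the RNAs in the levels reported here. Their correlation over the 10 RNAs was r = -0.16 (permutation p = 0.65) and Spearman's rho = -0.21 (permutation p = 0.557), and r was -0.20 without control 3 and shunt 3. Each such omission left out the 2 RNAs farthest from the median of miR-199a in that version of the levels. Of the other 92 tested miRNAs, 75 had a higher r with miR-199a than miR-214 had, and 60 had a higher r with miR-214 than miR-199a had. Under 4 versions of the levels the coefficient ran from -0.61, after centring on the median level (permutation p = 0.0713), to 0.64 in the authors' deposited value table (permutation p = 0.0328). Without control 2 and shunt 3 the centred value was -0.39, and its Spearman's rho was -0.39 (permutation p = 0.26). Deviations from the group means gave -0.55 (permutation p = 0.10), and -0.58 without control 3 and shunt 3. None of the 4 permutation p-values of r passed after Benjamini-Hochberg adjustment, the smallest being 0.131. The value of 0.64 dropped to 0.18 without shunt 2 and shunt 3, so it rests on those RNAs. RNAs share arrays and animals, and miR-199a was near background, so the coefficients are descriptions.

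**Figure D4:**
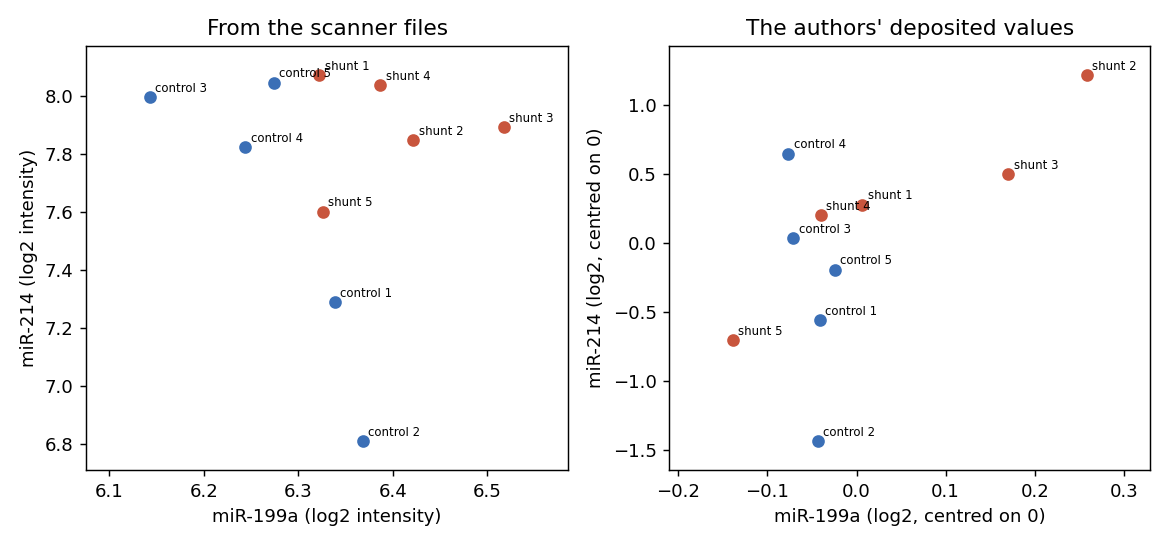
Level of miR-214 against level of miR-199a, for the 10 RNAs by leg, from the scanner files (left, normalized log2 intensity) and in the authors' deposited value table (right, log2 centred on 0). On the left r is -0.16, on the right it is 0.64 with shunt 2 and shunt 3 at the upper right, and control 2 is lowest for miR-214 in both.

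The tested miRNAs with the most similar profiles differed between the members. Over the 10 RNAs, miR-199a was closest to miR-100 (r = 0.89), miR-10a (r = 0.89) and miR-181b (r = 0.88). Spearman's rho was 0.90, 0.89 and 0.68 in this order. These 3 had mean levels of 6.16, 6.14 and 6.25, in the same dim range, and were above background in 7, 9 and 9 of 20 readings. miR-214 was closest to miR-346 (r = 0.87), miR-343 (r = 0.85) and miR-328 (r = 0.82), with a lower Spearman's rho of 0.72, 0.58 and 0.68. Their mean levels were 7.27, 6.37 and 6.43, and they were above background in 17, 11 and 12 of 20 readings. Control 2 was the lowest RNA for each of these 3 within the control group, as for miR-214. The points share arrays and depth of signal, and such likeness was picked as the highest of 92 coefficients.

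The authors' deposited table gives a fold and a p-value for each animal, and for miR-214 it too had both directions, 3 animals higher and 2 lower, though not the same animals. In the authors' deposited table the shunt leg was 6.29-fold higher in animal 28 (p = 2.41e-05) and 1.79-fold higher in animal 27 (p = 0.0187). The authors' deposited table has it 1.38-fold higher in animal 30 (p = 0.221) and lower by 1.36-fold in animal 31 (p = 0.548) and 1.43-fold in animal 32 (p = 0.358). Animals 30 and 31 have the opposite sign to the levels above, at -0.10 and 0.21 there, while the other 3 animals have the same sign. For miR-199a the authors' deposited table has folds of at most 1.23 and p-values of 0.743 to 0.99, none under 0.05. How these values were normalized and tested is not stated in the files or labels used. Each animal gave a single RNA per leg, so these p-values do not measure the spread among animals.

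The authors' deposited ranks are separate from their centred levels. They placed miR-214 between rank 20 and rank 42 of 1107 probes in 9 RNAs and at rank 129.5 in control 2. The rank in the shunt legs was 24 to 29. Control 2 was thus the RNA in which the authors' values too had miR-214 lowest.

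Other miRNAs known from smooth muscle and fibroblasts were read on the same arrays. Of 5 miRNAs of a smooth muscle list, all were tested, none passed in limma and the median difference was 0.020. miR-143, which keeps smooth muscle contractile together with miR-145, differed by 0.046 (SE 0.26, adjusted p = 0.967). miR-24 and miR-23b, members of 1 miRNA cluster, differed by 0.020 (SE 0.15) and 0.035 (SE 0.12). The other two lay below 0: miR-27b by -0.028 (SE 0.11) and miR-145, the largest difference of the list, by -0.26 (SE 0.11, adjusted p = 0.235). Of 9 miRNAs of a fibroblast and matrix list, 6 were tested, 1 passed higher (miR-21, with no control reading above background) and 0 lower, beside the 1.08% of all tested miRNAs, and the median difference was 0.20. In this list miR-22 differed by 0.19 (SE 0.13, adjusted p = 0.333), miR-29a, a repressor of collagen genes, by -0.38 (SE 0.11, adjusted p = 0.087) and miR-221 by 0.21 (SE 0.065, adjusted p = 0.106). The medians read against 0.12 over all 93 miRNAs. In the fibroblast and matrix list, miR-221 entered the test through the shunt group alone (4 of 10 control and 9 of 10 shunt readings above background). So did miR-21 and the tested miRNAs of this list not given here. This favours higher shunt levels, so neither that median nor the miR-221 value supports a difference.

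The tissue label was checked against miRNAs that mark cell types. The smooth muscle marker miR-143 and the endothelial marker miR-126 were above background in all 20 readings. The other smooth muscle marker, miR-145, was above it in 8 of 10 control and 9 of 10 shunt readings, and both markers' summed linear levels were 374.7 to 816.6 in control and 398.1 to 748.1 in shunt legs. The striated muscle marker miR-206 was above it in all 20 readings too. All 4 striated muscle markers were tested, with summed linear levels of 344.8 to 526.9 in control and 440.2 to 734.4 in shunt legs. Among these, miR-1 entered through the shunt group alone (4 of 10 control and 10 of 10 shunt readings above background). Of the leukocyte markers 2 of the 5 on the array were tested, with summed levels of 165.1 to 265.6 and 219.5 to 272. Of the epithelial markers 3 of 6 were tested, with summed levels of 197.3 to 224.8 and 213.6 to 260.2. All 3 entered the test through the shunt group alone, which favours a higher shunt sum. Above background were 3 control and 8 shunt readings of miR-203, 0 and 5 of miR-200a, and 0 and 6 of miR-200b. Both erythroid markers, miR-144 and miR-451, had no reading above background. The summed levels include the offset of 50 added for every miRNA, and the lists hold different numbers of miRNAs. The sums are therefore not measures of how abundant a cell type was. None of these marker miRNAs passed in limma, and their part in the members' differences was not tested. In such bulk tissue, fewer cells of a type and less RNA per cell cannot be told apart.

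Across the processing alternatives neither member passed the threshold on the adjusted p; each had an unadjusted p under 0.05 in 2 of them. The miR-214 difference lay above 0 in all 40 alternatives, between 0.10 and 0.73, with adjusted p of 0.106 to 0.853 in the 39 that have a test. The miR-199a difference lay above 0 in 37 of 39 alternatives and ran from -0.022 to 0.24, with adjusted p of 0.105 to 0.978 in the 38 that have a test.

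**Figure D5:**
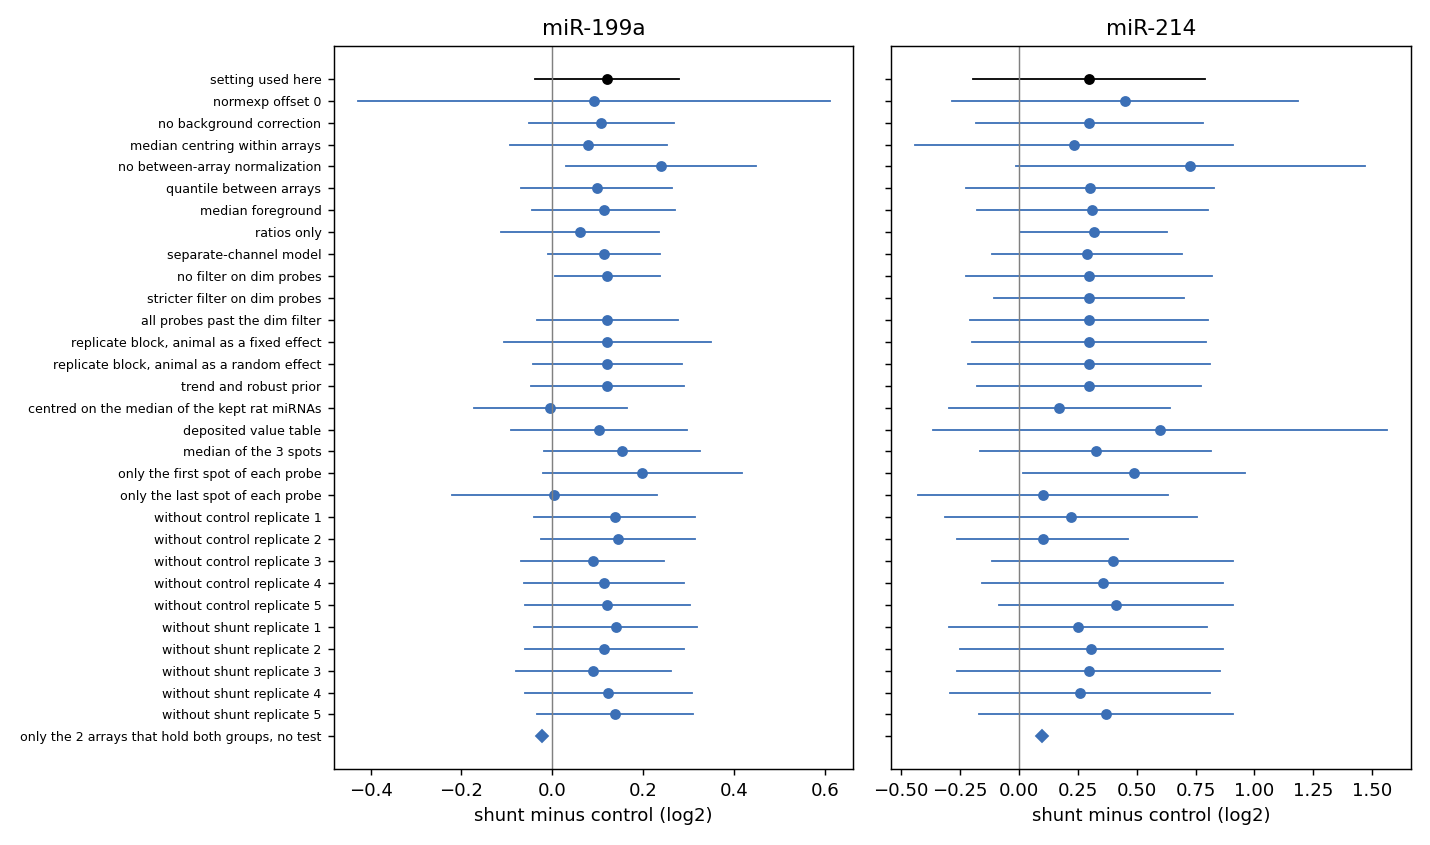
Shunt minus control difference of each member under the processing alternatives, those leaving out an array aside, in log2 units, with 95% confidence intervals where the setting has a test. The miR-214 values lie between 0.10 and 0.73, and the miR-199a values lie between -0.022 and 0.24.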

How the data were processed

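Total RNA of 10 legs (5 control, 5 shunt) was labelled directly and read on 10 arrays of 2 colours. The authors deposited scanner files with foreground and local background intensity of 3321 spots (1107 probes, 3 spots each) in a red and a green channel, per the file headers, without normalization. Their deposited value table holds centred log2 levels. A collapsed table deposited by the authors holds a signed fold (a score whose sign gives the higher leg) and a p-value for each probe and animal. It also holds a rank for each probe and RNA. All of these count with the value table as 1 source.

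Mean foreground and median background were corrected with normexp (offset 50), then loess (span 0.3, 4 iterations) and Aquantile with limma 3.58.1 under R 4.3.3 (random effects used statmod 1.5.0). Each level is the mean of 3 spots and then of both dyes. A rat miRNA was tested if a share of 0.5 or more of the readings in either group exceeded background. The test was limma's (lmFit, eBayes, two-sided), with Benjamini-Hochberg adjustment over 93. Exact permutation tests were run in SciPy 1.17.1 (Python 3.11.15), correlations with 100000 resamples. RNAs that share an array are not fully independent, so p-values may be too small. The scripts were tested on simulated data. The number of arrays limits the precision.

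The members and lists were chosen with earlier results of these data known. Named are the members, for each the 3 miRNAs with the highest r, and up to 3 of each list with the highest mean level, besides miR-21, miR-27b (chosen after its values were seen) and the cell type markers. The replicate numbers pair the legs because the labels tie both to 1 animal. Deviations of same-numbered RNAs from the group means correlated with r of -0.418 to 0.337 over the tested miRNAs. The animal block did not change the members' calls.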

Additional observations from a re-analysis of the deposited data

How the results depend on the processing

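miR-199a turned its sign to -0.0041 when each RNA was centred on the median of the tested miRNAs, and was -0.022 on the 2 arrays with both legs, where it had no test. It could not be tested under the stricter filter, which left 27 miRNAs. With the animal as a fixed replicate block, the limma adjusted p was 0.455 for miR-199a and 0.412 for miR-214. Leaving out 1 RNA in turn gave 0.089 to 0.14 for miR-199a and 0.10 (without control 2) to 0.41 for miR-214. Leaving out 1 array gave 0.097 to 0.16 and 0.19 to 0.38. miR-214 reached 0.73 without between-array normalization (adjusted p = 0.141), 0.60 in the deposited value table and 0.45 with an offset of 0; the causes were not tested. The correlation of the members turned to 0.64 in the value table. Readings of miR-199a above background dropped from 4 to 2 in control and from 8 to 5 in shunt legs when all 3 spots had to pass, and to 0 and 5 at 3 SD, so its signal over background limits every statement on it.

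The count of rat miRNAs past the limma threshold, 1 in the values reported, was 2 with an offset of 0, quantile normalization, median foreground or all probes. It was 3 with no background correction, ratios only, no filter or the median of 3 spots, 4 with a trended robust prior or centring, and 8 in the separate-channel model. It was 0 with median centring (9 at an unadjusted p under 0.05), no between-array normalization (31), the stricter filter (3), the fixed animal block (13) and the value table (4). With the first spot alone it was 10 and with the last spot alone 0 (11 unadjusted), both chosen after seeing the data. It ran from 0 to 25 (without control 4) over left-out RNAs and from 0 to 2 over left-out arrays.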
